A study of Mus musculus with 6 samples.

Results

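Canonical protein-coding transcripts are the annotated transcripts that stand for their genes by default and encode a protein. In the transcript-level comparison of mouse testis on high-fat and normal food, 74 such transcripts were described out of 831 that the authors listed as differing between the diets. They were taken as the protein-coding transcripts marked canonical in the deposited table, without transcripts assembled by the authors from their reads and without the transcripts of 15 genes set aside by symbol. Without that exclusion there would be 89. The remaining 742 listed transcripts are assembled ones, other annotated isoforms and transcripts of genes that encode no protein. Measured values other than a place on the authors' list were not used to choose the 74.

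The high-fat group was testis of C57BL/6 mice fed high-fat food for 8 weeks, and the normal group was testis of C57BL/6 mice fed normal food for 8 weeks. Each group had 3 libraries, numbered 10, 11 and 12 on high-fat food and 7, 8 and 9 on normal food. The labels give no make-up of the foods, no age of the mice and no word on whether separate animals gave the libraries. The p-values below therefore rest on library-to-library spread, part of which may be technical. Estimated counts over the listed transcripts summed to between 427777 and 490603 in the high-fat libraries and between 362790 and 402866 in the normal-food libraries. In whole tissue, fewer cells of a type and less RNA per cell cannot be told apart.

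Testis transcribes an unusually large part of the genome, and many genes there use promoters, splice sites and polyadenylation sites that other tissues use little. A gene can therefore put out several transcripts from the same locus. The canonical transcript is 1 of these, and its level can move because the locus as a whole moved or because another transcript of that locus took a different share. Mouse spermatogenesis relies on germ cell transcription factors, on remodelling of chromatin, on ubiquitin ligases and on cytoskeletal motors, and Sertoli, Leydig and peritubular cells support it from outside the germ line.

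Of the 74 canonical transcripts, 48 were higher and 26 were lower on high-fat food. The share that was higher was 64.9%, against 55.4% of all listed transcripts. The list itself is the background for these counts: the authors called 0.868% of the 95751 transcripts they tested, 0.48% higher and 0.387% lower on high-fat food, and the table holds only those. Every transcript described here was therefore already called by the authors, and a second test on the same libraries adds no independent evidence on the diet. The diets did not overlap in normalized count for 69 of the 74 transcripts (93.2%), where 91.3% of all listed transcripts did not overlap, so the count is close to that of the list. The 5 whose diets overlapped were Ttbk1, Phf2, Pla2g6, Tbx19 and Mef2d.

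Refitting the counts gave the size and the error of each difference. A normalized count is the authors' estimated count divided by the size factor of its library, and means are given ± SD over the 3 libraries of a diet. A log2 fold change is the high-fat level over the normal level, given ± SE from edgeR's quasi-likelihood test with Benjamini-Hochberg adjustment over the listed transcripts, called at an adjusted p under 0.05. A minimum count of 10 left 59 of the 74 in this test, and 15 were too low or too uneven between libraries to enter it. Of the 59, 10 were at 0 in every library of a diet and passed the minimum count only through the other diet. Some with only a few counts in a diet, as Flrt2 and Pcbd2, entered the same way. For all of these the edgeR p-value adds no support to the difference. Among the 59, edgeR called 41 higher and 16 lower on high-fat food, beside 55.7% and 44.0% of the 680 listed transcripts that entered it, 99.7% in all. Only these 680 had an edgeR p-value. With their p-values adjusted as if for 95751 tests, taking all the rest as larger, edgeR called 0 of the 59. Of the 59, 57 had an unadjusted p under 0.05, and the smallest p adjusted in this way was 0.257. The median log2 fold change of the 59 was 2.07, and the median of all 680 was 1.37. The median size of the change in either direction was 2.60 for the 59 and 4.02 for the 680.

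**Figure D1:**
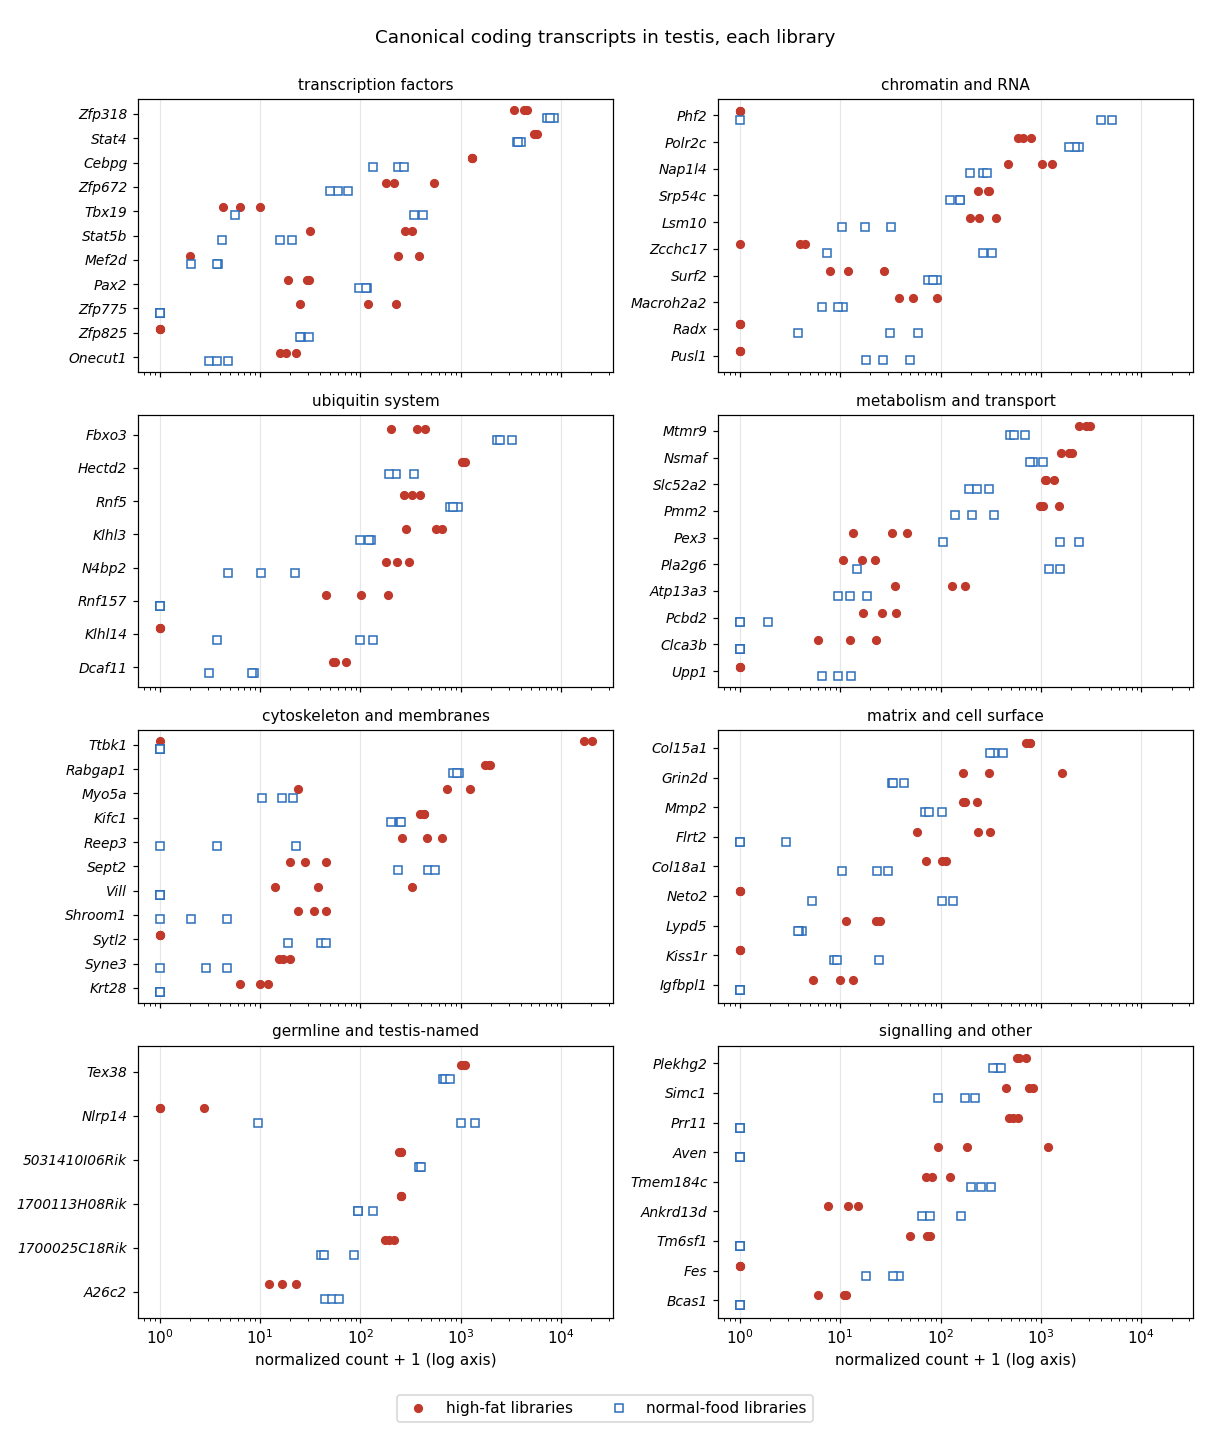
Normalized count plus 1 on a log axis for each of the 74 canonical transcripts, grouped by what their proteins do, with filled circles for the 3 high-fat libraries and open squares for the 3 normal-food libraries. Symbols of the diets stand apart for 69 of the 74, and points at the left edge are libraries with a count of 0.

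The canonical transcripts covered a wide range of levels. The mean over the 6 libraries was at least 1000 normalized counts for 9 of them, between 100 and 1000 for 35 and under 100 for 30, of which 7 were under 10. The lowest mean was 4.22 and the highest 6194. Per kilobase of transcript, the highest mean normalized counts were those of Stat4 (1564), Tex38 (1103), Ttbk1 (883), Mtmr9 (639), Polr2c (551) and Zfp318 (442).

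**Figure D2:**
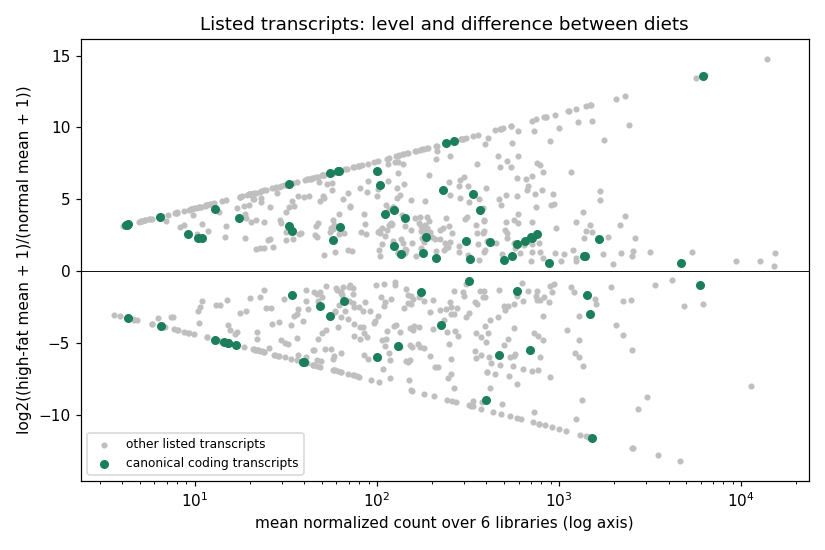
The log2 ratio of the high-fat to the normal mean, each with 1 count added, against the mean normalized count over 6 libraries on a log axis, for the 74 canonical transcripts in green and the other listed transcripts in grey. Transcripts along the outer edges of the wedge have a count of 0 in every library of a diet, as 21 of the 74 do.

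Transcription factors made up 11 of the 74, with 7 higher and 4 lower on high-fat food, and edgeR called 6 higher and 3 lower of the 9 it tested. Calls in this and the later groups stand beside the 99.7% of all tested listed transcripts that edgeR called. Cebpg encodes C/EBP gamma, a basic leucine zipper protein that pairs with other C/EBP and ATF proteins. Its canonical transcript (ENSMUST00000130491, GRCm38 chr7:35046422-35056636) had 1296, 1307 and 1281 normalized counts in the high-fat libraries, against 236, 268 and 134 in the normal-food libraries. All 3 high-fat libraries lay close together and far above all 3 normal-food libraries, at 1295 ± 12.7 against 213 ± 70.4, and edgeR gave a log2 fold change of 2.60 ± 0.37 with an adjusted p of 0.0031. Stat5b encodes a transcription factor that cytokine and growth hormone receptors activate. It had 275, 323 and 30.7 normalized counts on high-fat food against 3.19, 20 and 14.7 on normal food, and its edgeR log2 fold change was 4.03 ± 1.10 (adjusted p = 0.0124). High-fat library 12 was near the normal-food libraries. Stat4, which cytokine receptors activate in lymphocytes and which male germ cells also express, had 5782, 5533 and 5390 normalized counts on high-fat food against 3605, 3988 and 3735 on normal food. The groups did not overlap, and the edgeR log2 fold change was 0.56 ± 0.14 (adjusted p = 0.00869).

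The size of the Stat4 difference moved with the scaling. Under scaling by trimmed mean of M values (TMM) over the listed transcripts the log2 fold change of Stat4 was 0.20 ± 0.15 with an edgeR adjusted p of 0.225. With DESeq2 size factors of the listed transcripts it was 0.03 ± 0.18 with an edgeR adjusted p of 0.883. Leaving out a library changed the size little. The log2 fold change was 0.53 without high-fat library 10 (edgeR adjusted p = 0.0562), 0.53 without normal-food library 7 (0.0752), 0.60 without normal-food library 8 (0.0679) and 0.55 without normal-food library 9 (0.0833), and the call held without high-fat library 11 or 12 (0.0488 and 0.047).

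The 4 zinc finger genes of the Zfp series went both ways. Zfp318, a nuclear zinc finger protein made in testis, was among the most abundant, with 4298, 4572 and 3421 normalized counts on high-fat food against 8387, 7240 and 7737 on normal food. It fell by 0.93 on the log2 scale (edgeR adjusted p = 0.00458). Zfp672 had 542, 180 and 215 normalized counts on high-fat food against 58.5, 48.5 and 73.7 on normal food, a log2 fold change of 2.37 ± 0.56 by edgeR (adjusted p = 0.0081) that was 1.71 without high-fat library 10. Zfp775 had 226, 24 and 118 normalized counts on high-fat food against 0 in all 3 normal-food libraries. Its high-fat mean was at least 41.7-fold higher than the floor of 3 counts per library (edgeR adjusted p = 0.00742), and at least 24.1-fold without high-fat library 10. Zfp825 was at 0 in all high-fat libraries against 24.5, 29.5 and 24 on normal food, at least 8.72-fold lower on high-fat food by the same floor (edgeR adjusted p = 0.00256).

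Low-level developmental regulators were on the list too. Pax2, a paired box factor of kidney and urogenital tract development, had 29.7, 18 and 28.1 normalized counts on high-fat food against 95.7, 114 and 112 on normal food. It fell by 2.08 on the log2 scale (edgeR adjusted p = 0.00408). Onecut1, a homeobox factor of liver and pancreas, had 22, 17 and 14.9 normalized counts on high-fat food against 2.13, 3.81 and 2.76 on normal food, with an edgeR log2 fold change of 2.57 ± 0.36 (adjusted p = 0.00294). The diets did not overlap for either gene.

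Of 10 transcripts for chromatin and RNA factors, 4 were higher and 6 lower, and edgeR called 4 higher and 3 lower of the 7 it tested. Macroh2a2 encodes a histone H2A variant of repressed chromatin. It had 37.4, 91.1 and 51.8 normalized counts on high-fat food against 9.57, 8.57 and 5.53 on normal food, an edgeR log2 fold change of 2.92 ± 0.49 (adjusted p = 0.00408). Nap1l4, a histone chaperone, had 1036, 1291 and 470 normalized counts on high-fat food against 263, 290 and 197 on normal food, an edgeR log2 fold change of 1.90 ± 0.47 (adjusted p = 0.00936). Polr2c encodes a core subunit of RNA polymerase II. It had 663, 597 and 803 normalized counts on high-fat food against 2381, 2199 and 1897 on normal food, and fell by 1.65 on the log2 scale (edgeR adjusted p = 0.00347). These 3 transcripts showed no overlap between the diets. Polr2c also had a second listed transcript that moved the opposite way, described with the loci.

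Surf2 and Pusl1, a gene of the pseudouridine synthase family, were lower on high-fat food at low counts. Surf2 had 11, 7.01 and 26.3 normalized counts on high-fat food against 74.4, 91.4 and 82.9 on normal food, and fell by 2.47 on the log2 scale (edgeR adjusted p = 0.00726). Without high-fat library 12 its log2 fold change was -3.19. Pusl1 was at 0 in every high-fat library against 25.5, 17.1 and 48.8 on normal food, at least 10.2-fold lower on high-fat food against the floor of 3 counts (edgeR adjusted p = 0.00477). Srp54c is 1 of several near-identical mouse copies of the gene for a signal recognition particle subunit, so its reads may be shared among copies. It had 296, 302 and 237 normalized counts on high-fat food against 155, 156 and 123 on normal food (log2 fold change 0.94 ± 0.32, edgeR adjusted p = 0.027). The adjusted p of Srp54c was above 0.05 under TMM scaling, at 0.117, and between 0.056 and 0.0832 without high-fat library 10 or 11 or without normal-food library 7, 8 or 9. With DESeq2 size factors of the listed transcripts its edgeR adjusted p was 0.256.

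Ubiquitin system transcripts numbered 8, with 5 higher and 3 lower, and edgeR called 5 higher and 2 lower of 7. The ligases themselves went both ways. Hectd2, a HECT domain ligase, had 1103, 1050 and 1020 normalized counts on high-fat food against 339, 224 and 190 on normal food, with an edgeR log2 fold change of 2.08 ± 0.35 (adjusted p = 0.00408). Rnf5, a RING finger ligase of the endoplasmic reticulum, had 389, 326 and 273 normalized counts on high-fat food against 944, 784 and 834 on normal food, and fell by 1.37 on the log2 scale (edgeR adjusted p = 0.00725). Fbxo3, a substrate adaptor of SCF ligases, had 366, 441 and 201 normalized counts on high-fat food against 2291, 2436 and 3208 on normal food, and fell by 2.98 (edgeR adjusted p = 0.00279). Each of the 3 kept its diets apart, and each also had a second listed transcript, described with the loci.

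Among the other ubiquitin genes, Klhl3, an adaptor of cullin 3 ligases, had 285, 642 and 572 normalized counts on high-fat food against 128, 121 and 97.7 on normal food (log2 fold change 2.11 ± 0.44, edgeR adjusted p = 0.00636). Dcaf11, a substrate receptor of cullin 4 ligases, had 52.9, 71.1 and 55.3 normalized counts on high-fat food against 2.13, 7.61 and 7.37 on normal food (log2 fold change 3.35 ± 0.52, edgeR adjusted p = 0.00364). The diets did not overlap for Klhl3 or Dcaf11. N4bp2, named for its binding to the ligase Nedd4, had 232, 303 and 180 normalized counts on high-fat food against 21.3, 3.81 and 9.22 on normal food. Its edgeR log2 fold change was 4.38 ± 0.71 (adjusted p = 0.00384) and was 5.17 without normal-food library 7. Rnf157, a RING finger ligase, had 187, 101 and 43.9 normalized counts on high-fat food against 0 in all normal-food libraries, at least 37.7-fold higher than the floor of 3 counts (edgeR adjusted p = 0.00482), and at least 24.7-fold without high-fat library 10. A listed transcript on the opposite strand overlaps Rnf157, with 19.8, 28.0 and 28.1 normalized counts on high-fat food against 124, 135 and 106 on normal food.

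Metabolism and transport took in 10 transcripts, 7 higher and 3 lower, with 6 called higher and 2 lower by edgeR of 8 tested. Mtmr9, a myotubularin relative without phosphatase activity that partners active ones acting on phosphoinositides, had 3050, 2827 and 2371 normalized counts on high-fat food against 486, 690 and 534 on normal food. Its edgeR log2 fold change was 2.27 ± 0.26 (adjusted p = 0.00198). Slc52a2, a riboflavin transporter, had 1343, 1123 and 1091 normalized counts on high-fat food against 303, 192 and 230 on normal food, with an edgeR log2 fold change of 2.29 ± 0.33 (adjusted p = 0.00309). Pmm2, the phosphomannomutase that makes mannose-1-phosphate for protein glycosylation, had 1500, 975 and 1052 normalized counts on high-fat food against 342, 137 and 206 on normal food, with an edgeR log2 fold change of 2.36 ± 0.46 (adjusted p = 0.00552). In all 3 canonical transcripts the lowest high-fat library stood well above the highest normal-food library. Mtmr9 and Slc52a2 each also had a second listed transcript that moved the opposite way, described with the loci, and neither locus sum was called.

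Nsmaf, an adaptor that links the tumour necrosis factor receptor to neutral sphingomyelinase, had 2025, 1602 and 1898 normalized counts on high-fat food against 841, 1039 and 786 on normal food. Its edgeR log2 fold change was 1.05 ± 0.25 (adjusted p = 0.0081), and the adjusted p was 0.116 with DESeq2 size factors of the listed transcripts. Pcbd2, a pterin dehydratase, had 25.3, 35 and 15.8 normalized counts on high-fat food against 0, 0 and 0.922 on normal food (edgeR adjusted p = 0.00294). Of a list of 58 lipid metabolism genes, 3 had a canonical transcript here. Those of Mtmr9 and Nsmaf were called higher and that of Pla2g6 lower, while the locus sum of Mtmr9 was not called (edgeR adjusted p = 0.527). Of 46 thermogenesis and oxidative phosphorylation genes, 8 annotated transcripts were among the 831, and the only canonical one, that of Uqcrc1, was set aside by symbol. None of 28 glucose and insulin genes had an annotated transcript on the list.

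Cytoskeleton and membrane genes gave 11 transcripts, 9 higher and 2 lower, and edgeR called 7 higher and 2 lower of 9. Rabgap1 encodes a GTPase-activating protein for Rab proteins. Its canonical transcript (ENSMUST00000061179, GRCm38 chr2:37443285-37566454, plus strand) had 1961, 1743 and 1920 normalized counts on high-fat food against 835, 956 and 912 on normal food. The diets were separate, at 1875 ± 116 against 901 ± 61.2, with an edgeR log2 fold change of 1.06 ± 0.22 (adjusted p = 0.00627). With DESeq2 size factors of the listed transcripts the edgeR adjusted p was 0.0884. Kifc1, a minus-end directed kinesin of the spindle that germ cells also use in shaping the spermatid nucleus, had 425, 427 and 387 normalized counts on high-fat food against 245, 255 and 200 on normal food. Its edgeR log2 fold change was 0.82 ± 0.31 (adjusted p = 0.0395), and leaving out any 1 of the 6 libraries gave an adjusted p between 0.0681 and 0.0959.

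Sept2 encodes septin 2, a filament-forming GTPase. It had 44, 19 and 27.2 normalized counts on high-fat food against 470, 234 and 553 on normal food, and fell by 3.80 on the log2 scale (edgeR adjusted p = 0.00333). Reep3, an endoplasmic reticulum shaping protein, went the other way, with 461, 645 and 257 normalized counts on high-fat food against 0, 21.9 and 2.76 on normal food. Its edgeR log2 fold change was 5.76 ± 1.43 (adjusted p = 0.00927) and 8.19 without normal-food library 8, the only normal-food library above 3 counts. Shroom1, an actin-binding protein, had 44, 23 and 33.4 normalized counts on high-fat food against 1.06, 0 and 3.69 on normal food, and Syne3, the outer nuclear membrane protein nesprin-3, had 14.3, 19 and 15.8 against 0, 1.9 and 3.69. Both were called by edgeR, with log2 fold changes of 4.28 ± 0.83 for Shroom1 (adjusted p = 0.00547) and 3.02 ± 0.72 for Syne3 (adjusted p = 0.00835), and of 5.73 and 3.89 without normal-food library 9. Sytl2, a Rab27 effector, was at 0 in every high-fat library against 39.4, 18.1 and 44.2 on normal food, at least 11.4-fold lower on high-fat food against the floor of 3 counts (edgeR adjusted p = 0.00402).

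Matrix and cell surface genes gave 9 transcripts, 7 higher and 2 lower, and edgeR called all 6 it tested higher. The 2 lower ones, Kiss1r and Neto2, did not enter the test, and edgeR called 99.7% of all listed transcripts tested. The collagens Col15a1 and Col18a1 are related components of basement membranes. Col15a1 had 782, 705 and 769 normalized counts on high-fat food against 339, 312 and 417 on normal food (log2 fold change 1.08 ± 0.30, edgeR adjusted p = 0.0128). Col18a1 had 101, 70.1 and 113 normalized counts on high-fat food against 28.7, 9.52 and 22.1 on normal food (log2 fold change 2.23 ± 0.51, edgeR adjusted p = 0.0074). Mmp2, a gelatinase that cleaves basement membrane collagen, had 173, 232 and 167 normalized counts on high-fat food against 69.1, 76.1 and 101 on normal food (log2 fold change 1.21 ± 0.34, edgeR adjusted p = 0.0138). The diets did not overlap for any of the 3.

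Col15a1 and Mmp2 were near the limit of the test. The edgeR adjusted p of Col15a1 was 0.0807 under TMM scaling and 0.0552 without normal-food library 8. With DESeq2 size factors of the listed transcripts the edgeR adjusted p was 0.150 for Col15a1 and 0.105 for Mmp2. The edgeR adjusted p of Mmp2 was 0.0641 under TMM scaling, 0.0571 without high-fat library 11, 0.0534 without normal-food library 7 and 0.0548 without normal-food library 8. Collagen and gelatinase transcripts come largely from stromal cells, and canonical transcripts of 3 of 23 peritubular and stromal markers, Col1a1, Pdgfrb and Sparc, were on the authors' list but are among the 15 set aside by symbol. No other gene of that list had one.

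Surface receptors and adhesion proteins made up most of the rest. Grin2d, a subunit of NMDA glutamate receptors, had 1629, 166 and 301 normalized counts on high-fat food against 31.9, 41.9 and 32.3 on normal food. High-fat library 10 stood far above the other two, and the edgeR log2 fold change of 4.30 ± 1.01 (adjusted p = 0.0081) was 2.72 without it. Flrt2, a leucine-rich repeat adhesion protein, had 57.3, 310 and 233 normalized counts on high-fat food against 0, 1.9 and 0 on normal food, and its edgeR adjusted p was 0.00368. Lypd5, a surface protein of the Ly6 family, had 22, 24 and 10.5 normalized counts on high-fat food against 3.19, 2.86 and 2.76 on normal food (log2 fold change 2.63 ± 0.44, edgeR adjusted p = 0.00406). Kiss1r, the kisspeptin receptor, was at 0 in the 3 high-fat libraries against 23.4, 7.61 and 8.29 on normal food, which was too low for the edgeR test.

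The germline and testis-named group had 6 transcripts, 3 higher and 3 lower, of which edgeR called 2 higher and 1 lower of 5. Tex38 (testis expressed 38) had 1014, 1067 and 1091 normalized counts on high-fat food against 658, 696 and 780 on normal food, and 5031410I06Rik had 250, 253 and 241 against 395, 385 and 401. The diets did not overlap for these 2, yet they were the only tested transcripts of the 59 that edgeR did not call, at log2 fold changes of 0.57 ± 0.25 for Tex38 (adjusted p = 0.0625) and -0.67 ± 0.30 for 5031410I06Rik (adjusted p = 0.0667). The alternatives divided. For Tex38 the adjusted p over the listed transcripts was 8.45e-05 in DESeq2 and 0.0125 in limma-voom. In the authors' deposited table it was 0.0455. The authors' DESeq result had already chosen these transcripts, so the DESeq2 value adds no separate support. The edgeR log2 fold change of Tex38 was 0.21 under TMM scaling (adjusted p = 0.483) and 0.04 with DESeq2 size factors of the listed transcripts (adjusted p = 0.901). Both scalings moved listed transcripts down in general. For 5031410I06Rik the same scalings widened the difference, to -1.03 under TMM (edgeR adjusted p = 0.021) and -1.20 with DESeq2 size factors (edgeR adjusted p = 0.0121), and limma-voom gave an adjusted p of 0.0181. A26c2 had 15.4, 22 and 11.4 normalized counts on high-fat food against 43.6, 51.4 and 60.8 on normal food and fell by 1.67 on the log2 scale (edgeR adjusted p = 0.00727).

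The RIKEN transcript 1700025C18Rik had 214, 174 and 191 normalized counts on high-fat food against 39.4, 42.8 and 85.7 on normal food (log2 fold change 1.78 ± 0.43, edgeR adjusted p = 0.00854). Another, 1700113H08Rik, had 255, 250 and 255 on high-fat food against 94.7, 94.2 and 132 on normal food (log2 fold change 1.24 ± 0.32, edgeR adjusted p = 0.0104). Its edgeR adjusted p was 0.0505 under TMM scaling and 0.0882 with DESeq2 size factors of the listed transcripts. Of 13 lists of cell type markers for testis and neighbouring tissues, 2 held a canonical transcript of the 74, Zfp318 for spermatid chromatin and Stat4 for macrophages and lymphocytes. In 2 further marker lists the canonical transcripts on the authors' list were all set aside by symbol, Ropn1 and Mycbpap for the sperm tail and Col1a1, Pdgfrb and Sparc for the peritubular stroma. Any annotated transcript on the authors' list was found for 7 of these marker lists and none for the other 6, and the levels of markers outside the 831 were not analysed here.

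The last 9 transcripts were of signalling and other genes, with 6 higher and 3 lower, and edgeR called 5 higher and 3 lower of 8. Prr11, a proline-rich protein of the cell cycle, had 529, 480 and 591 normalized counts on high-fat food against 0 in every normal-food library. Its high-fat mean of 533 ± 55.9 was at least 182-fold higher than the floor of 3 counts (edgeR adjusted p = 0.00183). It entered the test through the high-fat libraries alone. Simc1, a protein with SUMO interacting motifs, had 448, 765 and 825 normalized counts on high-fat food against 174, 219 and 93.1 on normal food (log2 fold change 2.07 ± 0.48, edgeR adjusted p = 0.00806). Ankrd13d, which binds ubiquitin on endocytosed receptors, had 6.61, 11 and 14.1 normalized counts on high-fat food against 63.8, 160 and 78.3 on normal food, and fell by 3.23 on the log2 scale (edgeR adjusted p = 0.00414). Tmem184c had 70.5, 124 and 81.7 normalized counts on high-fat food against 253, 201 and 319 on normal food, and fell by 1.48 (edgeR adjusted p = 0.0114). Plekhg2 had 709, 606 and 582 normalized counts on high-fat food against 376, 331 and 395 on normal food, with an edgeR log2 fold change of 0.78 ± 0.30 (adjusted p = 0.0395). Leaving out any 1 library took the adjusted p of Plekhg2 to between 0.0695 and 0.121. The log2 fold change of Plekhg2 was 0.41 under TMM scaling (edgeR adjusted p = 0.252). With DESeq2 size factors of the listed transcripts it was 0.25 (edgeR adjusted p = 0.468).

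Other listed transcripts of the same genes gave the canonical transcript a context. For 11 of the 74, the authors' table held at least 1 more transcript of the same assembled locus, 15 in all, of which 10 were assembled and 5 annotated. In 9 of these 15 the direction was opposite to that of the canonical transcript and in 6 it was the same, and 9 of the 11 loci had an opposite partner. For the remaining 63 no other transcript of the locus was on the list, and the transcripts off the list were not analysed here, so a locus sum covers listed transcripts only. Summed over the listed transcripts of each locus, 2 of the 11 loci passed edgeR's test and 9 did not, while 94.7% of the 608 listed loci tested passed. The 608 include loci with only 1 listed transcript, which the authors had already called, so the 2 sets are not alike. The share among loci with more than 1 listed transcript was not computed. Listed transcripts of a locus overlap on the same strand, so the sharing of reads among them is uncertain. The canonical and the assembled transcript have 9 and 10 exons for Polr2c, 5 and 6 for Slc52a2 and 21 and 22 for Hectd2. For Mtmr9 they have 10 and 11 exons, and for Rnf5 6 and 7. The shares below are shares of estimated counts.

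Rabgap1 has 2 annotated transcripts on the list that start at different places. The other one, ENSMUST00000112920, had 225, 543 and 273 normalized counts on high-fat food against 1009, 1150 and 1265 on normal food, opposite to the canonical transcript. The canonical transcript made up 89.7%, 76.3% and 87.5% of the listed Rabgap1 counts in the high-fat libraries, against 45.3%, 45.4% and 41.9% in the normal-food libraries. Their sum was 2221 ± 55.8 on high-fat food and 2042 ± 175 on normal food, a log2 fold change of 0.12 ± 0.19 by edgeR (adjusted p = 0.560). The sequences just upstream of the 2 starts are shown because the 2 transcripts differ in where they begin. They are RefSeq's, GRCm38.p6, 120 bases on the plus strand, from chr2:37443165-37443284 for the canonical transcript, with a CCAAT box in capitals, and from chr2:37452134-37452253 for the other, with GC boxes (GGGCGG) in capitals. The RefSeq start used for the second lies 13 bases from the annotated start.
Rabgap1 canonical: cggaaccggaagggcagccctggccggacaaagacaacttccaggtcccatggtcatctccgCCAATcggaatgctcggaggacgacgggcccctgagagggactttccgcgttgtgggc
Rabgap1 other: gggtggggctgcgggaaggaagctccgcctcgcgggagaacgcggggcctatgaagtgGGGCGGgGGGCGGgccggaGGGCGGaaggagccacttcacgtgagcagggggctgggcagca
The upstream stretch of the canonical start held the CCAAT letters and no GGGCGG, and that of the other start held 3 copies of GGGCGG and no CCAAT on the strand shown.

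Kifc1 was divided between 2 transcripts of nearly the same length. The canonical one has 2357 bases and the assembled one 2354, so the sharing of reads between them is uncertain. The assembled transcript had 96.9, 50.1 and 66.7 normalized counts on high-fat food against 249, 236 and 222 on normal food. The canonical share was 81.4%, 89.5% and 85.3% on high-fat food against 49.6%, 51.9% and 47.4% on normal food, and the sum gave an edgeR log2 fold change of 0.05 ± 0.28 (adjusted p = 0.882).

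For Hectd2, an assembled transcript had 0, 17 and 0 normalized counts on high-fat food against 937, 1159 and 1075 on normal food. The canonical transcript was 100%, 98.4% and 100% of the listed counts on high-fat food against 26.6%, 16.2% and 15% on normal food. The locus sum was 1064 ± 41.5 on high-fat food and 1308 ± 65.0 on normal food, opposite in sign to the canonical transcript but not called (edgeR log2 fold change -0.30 ± 0.22, adjusted p = 0.239). Slc52a2 had the same form, with a canonical share of 99.9%, 99.7% and 99.8% on high-fat food against 23.5%, 18.6% and 25.3% on normal food and a summed edgeR log2 fold change of 0.14 ± 0.26 (adjusted p = 0.630).

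Rnf5, Polr2c and Fbxo3 were the loci where the canonical transcript was the lower one. The assembled Rnf5 transcript had 1055, 871 and 672 normalized counts on high-fat food against 143, 177 and 204 on normal food. The canonical share of Rnf5 was 26.9%, 27.3% and 28.9% on high-fat food against 86.9%, 81.6% and 80.4% on normal food, and its sum gave an edgeR log2 fold change of 0.22 ± 0.27 (adjusted p = 0.467). The canonical share of Polr2c was 22.8%, 29.6% and 35.6% on high-fat food against 100% in all 3 normal-food libraries, and that of Fbxo3 was 10.7%, 9.42% and 5.02% against 64.8%, 57.5% and 74.2%. For Mtmr9 the canonical transcript was the higher one and held 47.5%, 47.2% and 42.0% on high-fat food against 9.26%, 11.6% and 9.43% on normal food. None of the sums of Polr2c, Fbxo3 and Mtmr9 passed edgeR's test (adjusted p = 0.560, 0.992 and 0.527).

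**Figure D3:**
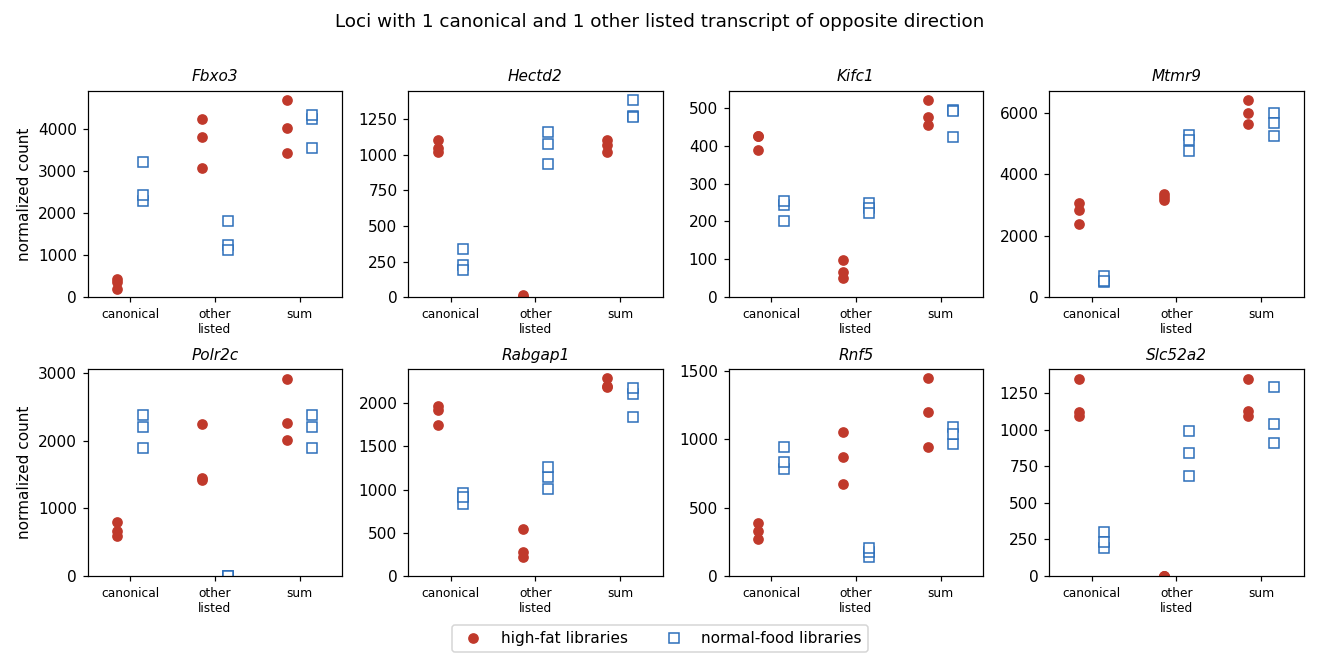
Normalized counts of the canonical transcript, of the other listed transcript of the locus and of their sum, for the 8 loci with exactly 1 other listed transcript, which moved the opposite way, with filled circles for high-fat libraries and open squares for normal-food libraries. The diets stand apart in both transcripts of each locus and come close or overlap in the sum, apart from Hectd2, where the sum was 1064 ± 41.5 on high-fat food and 1308 ± 65.0 on normal food.

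In Lsm10 and Aven the listed transcripts moved together and the sums passed the test. Lsm10 encodes a protein of the U7 ribonucleoprotein, which processes histone mRNA ends. Its canonical transcript had 243, 354 and 198 normalized counts on high-fat food against 30.8, 9.52 and 16.6 on normal food (log2 fold change 3.80 ± 0.58, edgeR adjusted p = 0.00356), and with 2 other annotated transcripts the sum was 526 ± 40.6 on high-fat food against 23.0 ± 13.9 on normal food (edgeR log2 fold change 4.51 ± 0.60, adjusted p = 0.00316). Aven encodes an inhibitor of apoptosis. Its canonical transcript had 93.6, 1164 and 182 normalized counts on high-fat food against 0 in all normal-food libraries. That was at least 163-fold higher than the floor of 3 counts, and at least 46.9-fold without high-fat library 11. The floor covers counting error only, and not reads shared with another transcript of the locus. A second annotated Aven transcript had 1266, 522 and 79 normalized counts on high-fat food against 17, 22.8 and 23 on normal food, so that the libraries that were high for one were not the same as for the other. The Aven sum was 1102 ± 747 on high-fat food against 21 ± 3.42 on normal food (edgeR log2 fold change 5.71 ± 0.84, adjusted p = 0.0036).

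Atp13a3, a P-type ATPase of endosomes that transports polyamines, had 5 listed transcripts. The canonical one had 130, 175 and 34.3 normalized counts on high-fat food against 8.51, 11.4 and 17.5 on normal food (log2 fold change 3.16 ± 0.72, edgeR adjusted p = 0.00742) and was at most 9.01% of the listed counts of the locus in any library. The annotated transcript ENSMUST00000061350 had 324, 140 and 33.4 normalized counts on high-fat food against 0 in all normal-food libraries. One assembled transcript was opposite, with 107, 136 and 33.4 on high-fat food against 404, 1006 and 1085 on normal food, and the other 2 assembled ones were at 0 in every normal-food library. The sum of the locus was 1687 ± 319 on high-fat food and 844 ± 376 on normal food and did not pass edgeR's test (log2 fold change 1.0 ± 0.44, adjusted p = 0.0655). A listed transcript on the opposite strand overlaps Atp13a3, with 17.6, 10 and 7.03 normalized counts on high-fat food against 158, 114 and 71.9 on normal food.

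The canonical Atp13a3 transcript differs from ENSMUST00000061350 by a coding exon, exon 33 of 34, which ENSMUST00000061350 lacks. The exon is shown because it is what the canonical form adds to the protein. It has 90 bases, or 30 codons, at GRCm38 chr16:30321806-30321895 on the minus strand, and is printed in capitals with 15 bases of the neighbouring exon on each side in lower case.
Atp13a3 exon 33: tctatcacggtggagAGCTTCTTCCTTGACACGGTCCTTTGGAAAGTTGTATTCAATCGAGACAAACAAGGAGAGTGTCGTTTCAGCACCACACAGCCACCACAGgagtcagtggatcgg
Since its length is a multiple of 3, the exon leaves the reading frame of the codons after it in place. Both forms were higher on high-fat food in normalized count, and the share of the exon in the sum of the 2 was not computed from reads.

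For 21 of the 74 transcripts (28.4%), no count was given to any library of a diet, as was so for 30.1% of all listed transcripts. Normal food was the diet at 0 for 11 of them and high-fat food for 10. A mean under 50 normalized counts over the 6 libraries was found for 14 of the 21, and 10 entered the edgeR test. These 10 passed its minimum count only through the diet with counts, so their edgeR p-values add no support to the difference. Besides those described, Tm6sf1 had 48.4, 77.1 and 72.9 normalized counts on high-fat food against 0 on normal food, at least 22.5-fold higher than the floor of 3 counts (edgeR adjusted p = 0.0027). Fes, a cytoplasmic tyrosine kinase, was at 0 on high-fat food against 37.2, 17.1 and 32.3 on normal food, at least 9.69-fold lower on high-fat food (edgeR adjusted p = 0.00372). A count of 0 in an estimate that divides reads among transcripts says that no reads were given to that transcript, not that the gene was silent.

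Further transcripts of the 21 were low. Clca3b, Krt28, Igfbpl1 and Bcas1 had between 4.4 and 22 normalized counts in each high-fat library against 0 in all normal-food libraries. Upp1, which encodes uridine phosphorylase, had 0 in all high-fat libraries against 11.7, 8.57 and 5.53 on normal food, and Radx, a single-stranded DNA binding protein of replication forks, had 0 against 58.5, 30.5 and 2.76. None of these 6 entered the edgeR test. Their adjusted p in the authors' deposited table were between 0.0292 for Upp1 and 0.047 for Igfbpl1.

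Libraries of the same diet were far apart in a further set. In 12 of the 74 transcripts (16.2%, against 18.2% of all listed transcripts) the lowest library of a diet had under 5% of the highest library of that diet, which itself had at least 100 normalized counts. The uneven diet was high-fat food for 4 and normal food for 8, and the low library was 10 once, 11 once and 12 in 2 transcripts on high-fat food, and 7 in 3, 8 in 2 and 9 in 3 on normal food. No library was therefore the low one throughout. Only 4 of the 12 entered the edgeR test.

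**Figure D4:**
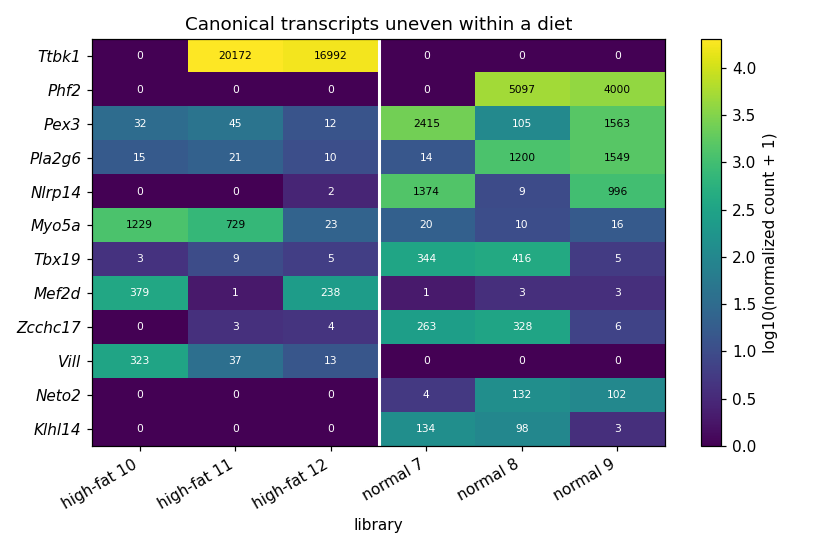
Normalized counts of the 12 canonical transcripts that were uneven within a diet, 1 row per transcript and 1 column per library, coloured by log10 of the normalized count plus 1 and labelled with the normalized count. In each row the lowest library of a diet has under 5% of the highest library of that diet, as in Ttbk1, with 20172 and 16992 in high-fat libraries 11 and 12 and 0 in library 10.

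Ttbk1, a kinase of tau and tubulin, had 0, 20172 and 16992 normalized counts on high-fat food against 0 in all 3 normal-food libraries. It had the highest mean of the 74 and the smallest adjusted p of these 12 in the authors' deposited table, at 7.4e-10, although high-fat library 10 was the same as normal food. Phf2, a histone demethylase, had 0 in all high-fat libraries against 0, 5097 and 4000 on normal food, and its adjusted p in the authors' deposited table was 0.0274. Neither has an interpretable fold change, since a library at 0 and libraries of very high counts belong to the same diet. Neither entered the edgeR test.

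Pex3, a receptor in the building of peroxisome membranes, had 31.9, 45.1 and 12.3 normalized counts on high-fat food against 2415, 105 and 1563 on normal food. The diets did not overlap, and edgeR gave a log2 fold change of -5.51 ± 1.28 (adjusted p = 0.00805), while limma-voom gave an adjusted p of 0.0883. Pla2g6, a calcium-independent phospholipase A2, had 15.4, 21 and 9.66 normalized counts on high-fat food against 13.8, 1200 and 1549 on normal food. Normal-food library 7 lay among the high-fat libraries, and the edgeR adjusted p of 0.0129 was 0.0518 without high-fat library 10, 0.0547 without high-fat library 12 and 0.156 in limma-voom. Its log2 fold change was -5.90 with all libraries, -5.90 without high-fat library 10 and -5.65 without high-fat library 12. Myo5a, an actin motor of vesicle transport, had 1229, 729 and 22.8 normalized counts on high-fat food against 20.2, 9.52 and 15.7 on normal food (log2 fold change 5.44 ± 1.43, edgeR adjusted p = 0.0109), and limma-voom gave an adjusted p of 0.125. The edgeR calls of Pex3, Myo5a and Vill held whichever of the 6 libraries was left out. Without high-fat library 10 the log2 fold change of Myo5a was 4.63, and without normal-food library 7 that of Pex3 was -4.80.

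Vill, a villin-like actin-binding protein, had 323, 37 and 13.2 normalized counts on high-fat food against 0 on normal food, at least 42.3-fold higher than the floor of 3 counts (edgeR adjusted p = 0.0184). High-fat library 10 carried that bound, which was at least 8.55-fold without it. Nlrp14, a germ cell protein of the NLR family, had 0, 0 and 1.76 normalized counts on high-fat food against 1374, 8.57 and 996 on normal food. Tbx19, a T-box factor of the pituitary, had 3.3, 9.01 and 5.27 on high-fat food against 344, 416 and 4.61 on normal food. Mef2d, a MADS box factor of muscle and neurons, had 379, 1 and 238 on high-fat food against 1.06, 2.86 and 2.76 on normal food. Zcchc17, a zinc knuckle protein of the nucleolus, had 0, 3 and 3.51 on high-fat food against 263, 328 and 6.45 on normal food, Klhl14 had 0 in each against 134, 98 and 2.76, and Neto2, an auxiliary subunit of kainate receptors, had 0 in each against 4.25, 132 and 102. In each of these a library of one diet was close to the level of the other diet.

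Structure set the canonical transcripts little apart from the list. Their median length was 3356 bases against 3094 for all listed transcripts, and the median number of exons was 10 for both. Lengths ran from 695 to 13450 bases and exons from 2 to 41. All 74 were found in GENCODE M21 with the same number of exons, 37 of them with the same coordinates. The other 37 were longer as deposited than in GENCODE, by up to 3431 bases in Mef2d, and the reason was not tested. The genes of 10 have only 1 annotated transcript, and 64 have 2 or more, with a median of 4 and a maximum of 19. The median coding length was 1624.5 bases, and the 74 genes lay on 20 chromosomes.

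Promoter letters were read for the 47 canonical transcripts whose annotated start lay within 100 bases of a RefSeq start, in the 120 bases upstream on both strands. The GC box GGGCGG was present in 19 of 47 (40.4%), against 26.5% of 32851 mouse promoters in RefSeq, and the CCAAT box letters in 13 (27.7%) against 21.3%. TATAAA was present in 1 (2.13%) against 6.34%, and the cyclic AMP response element TGACGTCA in 1 (2.13%) against 1.24%. The 32851 promoters were not limited to the starts of canonical coding transcripts, so the 2 sets are not alike. These matches are a description of letters in a window and not of binding, and no test was made of the differences.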

How the data were processed

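The deposited table has 1 line per transcript. Per the file headers it holds estimated counts for 6 libraries, which are whole numbers as deposited, and the authors' rounded normalized counts, treated as a score. The authors' log2 fold change, their p-values before and after adjustment, transcript length and exon number are deposited too. The submitters' processing notes name Trimmomatic, HISAT2, StringTie, DESeq and GRCm38 and give no version. RNA came from 50 mg of tissue, with strand kept, per the labels' protocols. All 831 lines have an authors' adjusted p under 0.05; 95751 tested transcripts follow from adjusted p and rank in 730 lines within 0.05 percent.

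Size factors recovered from the deposited values, 0.908, 0.999 and 1.14 on high-fat and 0.940, 1.05 and 1.09 on normal food, rebuilt every normalized value. Estimated counts, already whole, went into edgeR 4.0.16 (R 4.3.3) over all 831 lines (filterByExpr, minimum count 10, only these 2 diets, no covariate), adjusted over all tested lines. The code was also run on simulated data that left most transcripts unchanged. Since all transcripts of this list were called, that run does not show how the test behaves here. TMM, DESeq2 1.42.0, limma-voom (limma 3.58.1), other filters, wider adjustment and left-out libraries were alternatives. Zeros used a floor of 3 counts per library, which covers counting error only and not the sharing of reads among transcripts. For 1 symbol turned into a date, the name was read from GENCODE. Named transcripts were the 12 most abundant, the 8 largest rises and 8 largest falls, those at 0 on a diet, those with an opposite partner and members of 37 gene lists, 13 of which held a canonical transcript and 24 none; others were added after their values were seen. Members, lists and role groups were chosen with earlier results of these data known. Enrichment tables were not used.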

Additional observations from a re-analysis of the deposited data

How the results depend on the processing

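No paired analysis was possible because the diets share no library numbers. The edgeR calls, 41 higher and 16 lower, stayed within 1.5 times of that under TMM (34 and 17), DESeq2 size factors (31 and 17), a mean of at least 50 (35 and 15), limma-voom (41 and 15) and, chosen after seeing the data, without the uneven transcripts (39 and 14). Without a filter 47 were called higher and 25 lower. DESeq2 called 48 higher and 26 lower, on transcripts that the authors' DESeq result had already chosen. With the p-values of the listed transcripts adjusted as if for 95751 tests, edgeR called 0 higher and 0 lower, while 57 had an unadjusted p under 0.05. The smallest adjusted p was then 0.257. Transcripts off the list had no edgeR p-value and were taken as larger. The median log2 fold change of 2.07 was 1.71 under TMM and 1.44 with DESeq2 size factors, which moved the median of all listed transcripts by -0.44 and -0.64. TMM lost 7 calls and DESeq2 size factors 9. Both scalings assume that most transcripts do not differ, which a list of called transcripts does not meet. Leaving out 1 library gave 36 to 40 higher and 17 to 22 lower calls, a median of 1.27 to 2.17 and 3 to 3 passing sums by symbol, and it ended 7 calls, with fewer samples and little change in fold, and moved 15 of 59 fold changes by over 1.5 times, Kifc1 and Plekhg2 losing theirs whichever library was out. Of the 47 named transcripts, the 36 with a fit kept their direction under every alternative run that fitted them. The filter at a mean of at least 50 fitted 30 of them. Since all were listed for differing in these same libraries, a reversal was unlikely from the start. The other 11 did not enter the edgeR test. Sums by symbol, which leave out the assembled transcripts of a locus, passed for 3 of 4 genes, where 98.2% of listed symbols passed. The listed symbols include those with only 1 listed transcript, already called by the authors, so the 2 shares are not alike. For Atp13a3 the sum by symbol passed (edgeR log2 fold change 4.46, adjusted p = 0.00502). Its sum by locus did not (edgeR log2 fold change 1.0, adjusted p = 0.0655). Transcripts under 10 counts and transcripts at 0 limit what can be said of size.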
